A study of Rattus norvegicus with 4 samples.

Results

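The genes described here are 10 heat shock genes of the rat whose products work in the cytosol, the nucleus or the mitochondrion, followed in the uterine muscle wall after estradiol. They are Hspa1a, Hspa1b, Hspa8, Hsp90aa1, Hsp90ab1, Hspb1, Cryab, Hspd1, Hspe1 and Hsf1, and their probe sets were taken by gene symbol. Every probe set, that is a group of oligonucleotides read out as 1 signal, was kept if the platform annotation gave it exactly 1 of these symbols. This left 18 of the 8799 probe sets of the array, for 7 of the 10 genes. Hspa1b, Hspa8 and Hsp90aa1 were matched only by probe sets that carry several symbols. There were 10 joint probe sets of this kind, and their signals are given apart because they belong to no single gene.

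Heat shock proteins are chaperones, which bind unfolded proteins and help them to fold, to stay soluble or to be handed on for degradation. The Hsp70 proteins bind short exposed stretches and release them on ATP hydrolysis. The Hsp90 proteins finish the folding of selected clients, among them the receptors for estrogen and progesterone, which an Hsp90 complex keeps ready to bind hormone. Small heat shock proteins hold unfolding clients without using ATP, and in muscle they associate with the contractile and intermediate filaments. Hsp60 and Hsp10 form the folding chamber of the mitochondrial matrix. Heat shock factor 1, the product of Hsf1, is the transcription factor that raises the other genes in stressed cells through heat shock elements, inverted repeats of the letters GAA in their promoters.

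The rats were female, 60 days old, and had been ovariectomized a week before treatment, controls included. Estradiol benzoate, an esterified estradiol, was injected under the skin at 10 µg per kg, and controls received the vehicle. The 4 groups were control at 6 h, estradiol at 6 h, control at 24 h and estradiol at 24 h after injection, and each was 1 array of RNA pooled from 6 animals. With 1 array in a group there is no replicate error, and animals cannot be told apart within a pool. A strain is not named in the labels.

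Signals are MAS5 units scaled to a trimmed mean of 500 on each array. Values under an array's 40th percentile, between 89.5 and 108 units, were treated as that floor. A difference of at least 2-fold, which is 1 on the log2 scale, with the brighter array above its floor, was counted as higher or lower. It describes a pair of pools and has no p-value. With the dimmer array at its floor the fold is a lower bound, written as at least. Of the 6157 probe sets above the floor on at least 1 array, 16.7% differed in this way at 24 h (8.3% higher and 8.36% lower with estradiol) and 12.3% at 6 h (6.94% higher and 5.38% lower with the estradiol label). All 18 heat shock probe sets were above the floor on at least 1 array and 16 on all 4. Differences between probe sets of 1 gene show how far the readouts scatter, but probe sets of 1 gene share the same RNA and are not replicates.

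The 4 genes used to check the labels, Igf1, Pgr, S100g and Hsd11b2, are textbook targets of estrogen in the uterus. They were between 2.74-fold and 7.79-fold brighter with estradiol at 24 h. At 6 h the same 4 genes were between 5.79-fold and 11.2-fold dimmer on the array labelled estradiol. They go against the labels at 6 h, so each difference at 6 h is given for the arrays as labelled. The defining markers of smooth muscle were bright on all 4 arrays, and 8 of the 8 measured, Acta2 and Myh11 among them, were above the floor throughout. The 24 h pair and the 6 h pair had different scan days, so the effect of time cannot be told apart from that of the scan. The fluidics record of the 24 h control ended in a communication error.

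Hspd1 and Hspe1 are shown first as sequence because they form a head-to-head gene pair and their signals differed between the arrays in the same way. In the RefSeq tables of build GRCr8 their promoter windows, 250 bases before to 50 after the start site, overlap by 211 bases on chromosome 9, chr9:64084077-64084287. The Hspd1 window is chr9:64083988-64084287 on the minus strand and the Hspe1 window chr9:64084077-64084376 on the plus strand, with 289 bases between the start sites. Each is printed 5′ to 3′ along its own gene, and capitals mark the heat shock element they share, in 4 units of alternating direction.
Hspd1: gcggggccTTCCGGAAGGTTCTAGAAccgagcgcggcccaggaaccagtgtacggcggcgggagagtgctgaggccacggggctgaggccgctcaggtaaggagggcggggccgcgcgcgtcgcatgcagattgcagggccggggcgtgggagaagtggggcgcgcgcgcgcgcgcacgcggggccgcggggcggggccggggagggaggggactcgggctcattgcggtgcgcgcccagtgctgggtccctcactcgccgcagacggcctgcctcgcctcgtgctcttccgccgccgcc
Hspe1: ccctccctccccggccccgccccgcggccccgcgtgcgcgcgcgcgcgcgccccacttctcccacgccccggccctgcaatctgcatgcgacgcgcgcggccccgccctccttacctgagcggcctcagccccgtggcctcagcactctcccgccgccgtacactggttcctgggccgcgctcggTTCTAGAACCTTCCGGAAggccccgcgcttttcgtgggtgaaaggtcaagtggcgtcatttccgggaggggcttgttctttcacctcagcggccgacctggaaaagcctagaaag

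The element lies from 65 to 48 bases before the Hspe1 start and from 242 to 225 bases before the Hspd1 start. Promoter windows were matched by gene symbol for 6 of the 10 genes: Hspa1a, Hspa8, Hsp90ab1, Hspb1, Hspd1 and Hspe1. Hspa1b, Hsp90aa1, Cryab and Hsf1 had no window in the table. The 4-unit run (TTC, GAA, TTC and GAA, with any 2 bases between neighbours) reads the same on both strands and stood in 10 of 33469 windows of the same length, or 0.0299%, among them the windows of Hspd1 and Hspe1. Of the other 8 windows with this run, those of Chordc1, an Hsp90 co-chaperone, and Ghrhr belonged to genes with a named probe set on the array. The 3-unit run (GAA, TTC and GAA with the same spacing, or its reverse complement) stood in 0.798% of windows and in 3 of the 6 heat shock windows, those of Hspd1, Hspe1 and Hspa8. In the Hspd1 and Hspe1 windows it overlaps the 4-unit run.

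The Hspb1 window is shown as a contrast, because exact matching of letters found only 2-unit pieces of the element in it. Runs with a mismatched base were not searched. The stretch chr12:26432383-26432450 of GRCr8, on the minus strand, has the palindrome GAANNTTC in 2 places, here in capitals. That palindrome alone is common and stood in 8.59% of all windows.
Hspb1: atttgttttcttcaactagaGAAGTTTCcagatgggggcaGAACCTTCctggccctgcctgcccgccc

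The Hspa1a and Hsp90ab1 windows held none of these runs, which says only that the letters are not in these 300 bases. The full estrogen response element (GGTCA and TGACC with any 3 bases between) stood in 0.0269% of all windows and in none of the 6. Its core GGTCA, searched on both strands, stood in 40.5% of all windows and in those of Hspb1 and Hspe1. These matches are descriptions of letters. Binding to any of these sites was not measured.

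**Figure D1:**
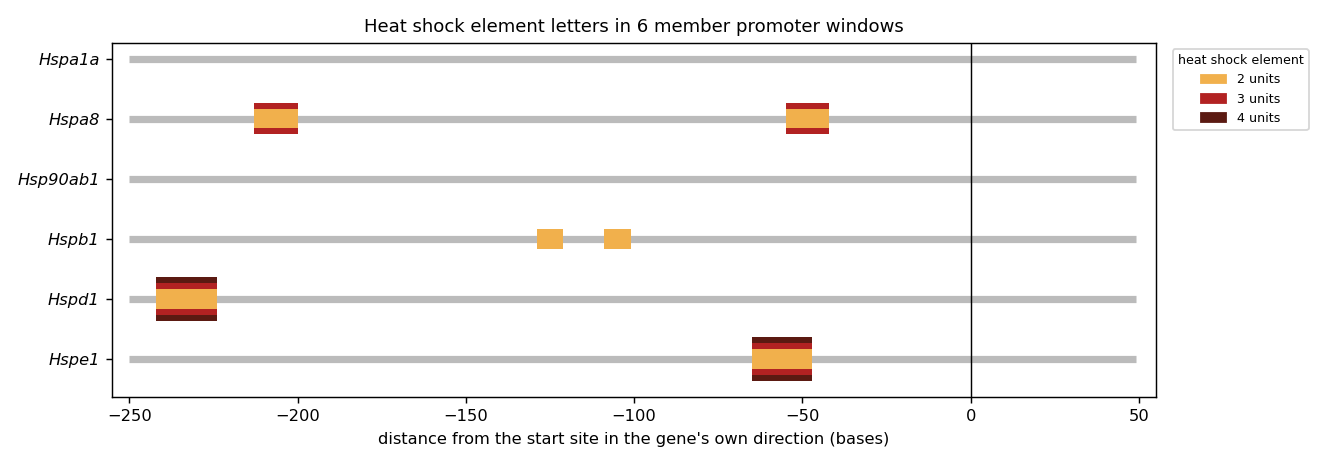
Map of heat shock element letters in 6 promoter windows; the x axis is the distance from the start site in bases, in the direction of each gene, and coloured boxes are runs of 2, 3 or 4 units. By exact match Hspd1 and Hspe1 hold the 4-unit run, Hspa8 has 3-unit runs in 2 places, and Hspb1 has only 2-unit pieces.

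Hspe1, which encodes Hsp10, the lid of the mitochondrial folding chamber, was the only one of the 7 genes with probe sets at least 2-fold higher with estradiol at 24 h. Probe set rc_AI170613_at read 2594 in the control and 6049 with estradiol at 24 h, and 4179 on the array labelled control and 1865 on the array labelled estradiol at 6 h. The estradiol array at 24 h was highest and the array labelled estradiol at 6 h lowest. This made Hspe1 2.33-fold higher with estradiol at 24 h, a log2 difference of 1.22, and 2.24-fold lower with the estradiol label at 6 h, a log2 difference of -1.16. Its companion rc_AI170613_g_at, built on the same expressed sequence tag, read 2133 and 4816 at 24 h and 3675 and 1560.2 at 6 h in the same order. It was 2.26-fold higher at 24 h and 2.36-fold lower at 6 h. Of all 6157 probe sets measured, 1.51% were 2-fold higher at 24 h and 2-fold lower at 6 h, and 93 probe sets made up that share.

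Hspd1, which encodes Hsp60, the chamber itself, had the same order of arrays on both of its probe sets. Probe set X54793_at read 3134 in the control and 5691 with estradiol at 24 h, and 4886 and 2127 on the arrays labelled control and estradiol at 6 h. It was 1.82-fold higher at 24 h, under the 2-fold rule, and 2.30-fold lower at 6 h. With arrays scaled to a common median it just met the rule at 24 h. Probe set rc_AA858640_s_at read 1585 and 2098 at 24 h and 2013 and 974 at 6 h. It was 1.32-fold higher at 24 h and 2.07-fold lower at 6 h. The chamber and its lid therefore ran in the order estradiol at 24 h, control label at 6 h, control at 24 h and estradiol label at 6 h on 4 of 4 probe sets.

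The middle places of that order depend on arrays of different scan days. When the 6 h control replaced the 24 h control, in a comparison added after the data were seen, the Hspe1 probe sets were higher with estradiol at 24 h by 0.53 and 0.39 on the log2 scale, under 2-fold. Set against the 24 h control, the array labelled estradiol at 6 h was lower by a log2 difference of -0.48 and -0.45 for Hspe1 and of -0.56 and -0.70 for Hspd1, again under 2-fold. For Hspd1 with estradiol at 24 h against the 6 h control the log2 differences were 0.22 and 0.06. The order of the arrays already fixed each direction, so the change of control could alter only the size. Other genes moved with the pair on these arrays. The summed signal of 6 epithelial markers was 1157 in the control and 3605 with estradiol at 24 h, and 1773 and 652 on the arrays labelled control and estradiol at 6 h. Of these markers 5 were at least 2-fold higher at 24 h and 3 at least 2-fold lower at 6 h. Krt8, Krt18, Epcam and Cldn3 were below the floor on the array labelled estradiol at 6 h, Epcam also on the array labelled control. Muc1 went the other way at 24 h, 283 in the control and 194 with estradiol. The summed skeletal muscle markers, mostly Acta1, read 3069 and 8424 at 24 h and 6059 and 2509 at 6 h. Of the same list Myh4 and Tnni2 were below the floor on all 4 arrays, while Tnnt3 and Ckm were above it on all 4. Tnnt3 read 118 and 109 at 24 h and 373 and 323 at 6 h, and Ckm 150 and 205 at 24 h and 285 and 185 at 6 h. The summed smooth muscle markers read 91166 and 101065 at 24 h and 85498 and 71946 at 6 h, with 0 of 8 past 2-fold. The part of these cell types in the Hspd1 and Hspe1 differences was not tested. More of a cell type and more RNA per cell cannot be told apart in pooled tissue.

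**Figure D2:**
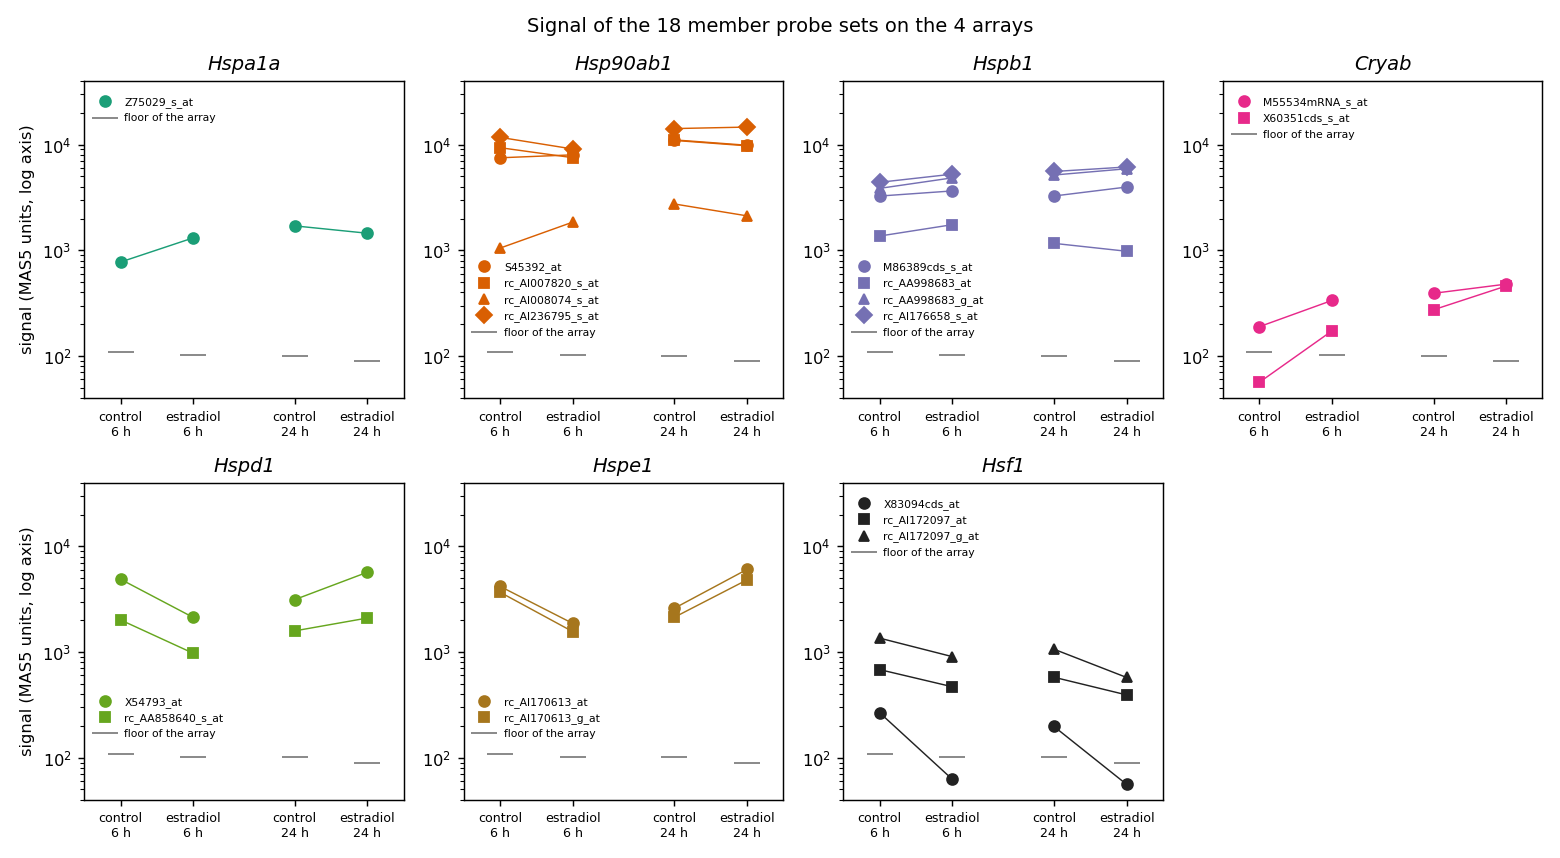
Signal of the 18 heat shock probe sets in MAS5 units on a log axis, with 1 point for each probe set and array, lines joining the 2 arrays of a time and grey dashes at each array's floor. Hspe1 and Hspd1 have their top signal with estradiol at 24 h and their bottom signal at 6 h with the estradiol label, the 3 Hsf1 probe sets are lower on both arrays labelled estradiol, and Hsp90ab1 stays within 1.30-fold at 24 h.

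The genes with the array pattern nearest to Hspe1 were sought among 2651 genes above the floor on all 4 arrays, by the root-mean-square difference of log2 signals centred over the 4 arrays. Nme2, a nucleoside diphosphate kinase, was nearest at 0.05. It was followed by Slc25a5, a carrier that exchanges ADP and ATP across the inner mitochondrial membrane, at 0.06. Psmc5, an ATPase subunit of the proteasome, was at 0.07 and Hnrnpab, an RNA-binding protein, at 0.09. Hspd1 ranked 9 among the 2651 genes, at 0.14. Among the other heat shock genes Hsp90ab1 ranked 300, and Hspb1, Cryab, Hspa1a and Hsf1 ranked between 722 and 1979. Nme2 read 3876 and 1636 on the arrays labelled control and estradiol at 6 h, and 2304 and 5083 in the control and with estradiol at 24 h. With 4 arrays such a likeness is a description and no measure of shared control.

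**Figure D3:**
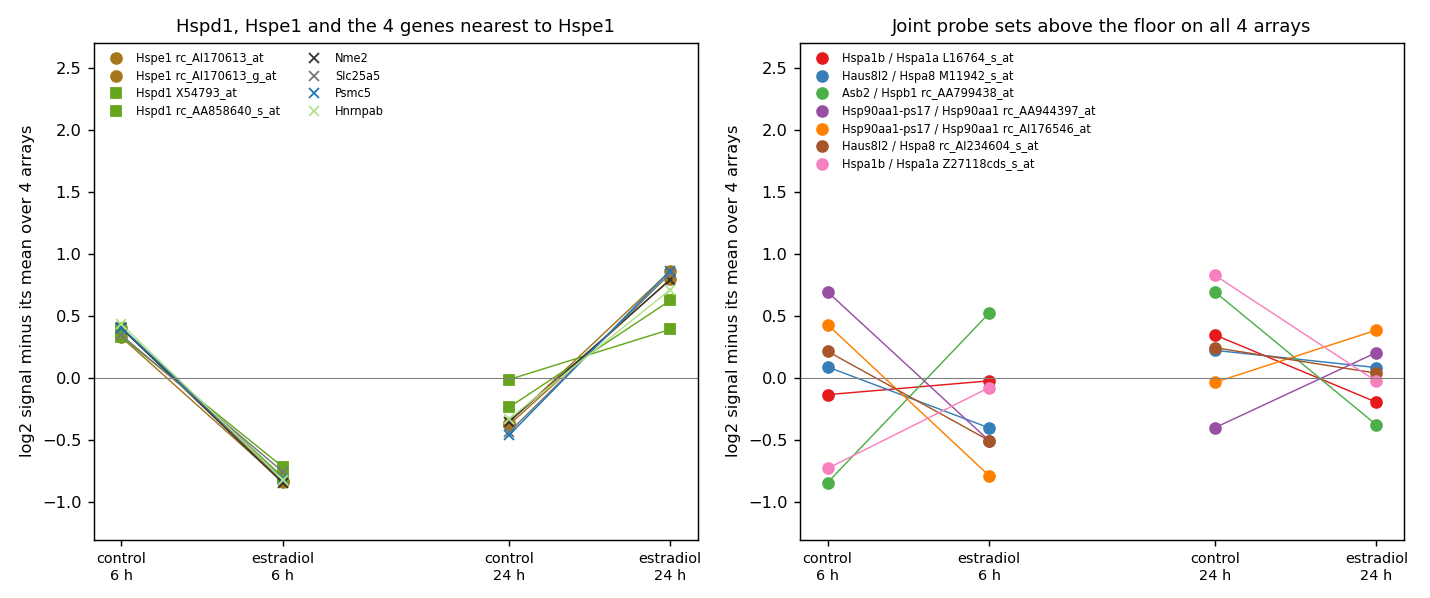
Log2 signal minus its mean over the 4 arrays, for the Hspd1 and Hspe1 probe sets and the 4 genes nearest to Hspe1 (left) and for 7 joint probe sets above the floor on all arrays (right). On the left every gene lies lower with the estradiol label at 6 h and higher with estradiol at 24 h than in the control of that time. On the right the probe sets shared by Hsp90aa1 and Hsp90aa1-ps17 do the same and the others do not.

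Hsp90ab1, the constitutive Hsp90 of the cytosol, differed little between estradiol and control at 24 h. Its 4 probe sets had log2 differences from -0.37 to 0.05 at 24 h and from -0.37 to 0.82 at 6 h, and 0 of 4 met the 2-fold rule at either time. Probe set rc_AI236795_s_at read 14192 in the control and 14666 with estradiol at 24 h, and 11719 and 9097 on the arrays labelled control and estradiol at 6 h. S45392_at read 11092 and 9869 at 24 h and 7511 and 8008 at 6 h, in the same order. The probe sets did not rank the arrays alike. With quantile normalization the 0.05 of rc_AI236795_s_at at 24 h became -0.01. The dimmest, rc_AI008074_s_at, read 1049.5 on the array labelled control at 6 h and 1848 on the array labelled estradiol, against 2746 and 2119 in the control and with estradiol at 24 h. It was 2.62-fold higher in the 24 h control than in the 6 h control. The other 3 differed between the controls by 1.17-fold to 1.48-fold.

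Hsp90aa1, the stress-inducible Hsp90, was read only together with a pseudogene, Hsp90aa1-ps17, on the probe sets rc_AI176546_at and rc_AA944397_at. The first read 8584 in the control and 11486 with estradiol at 24 h, and 11842 and 5101 on the arrays labelled control and estradiol at 6 h. The second read 1014 and 1542 at 24 h and 2162 and 943 at 6 h. Their log2 differences were 0.42 and 0.60 at 24 h and -1.21 and -1.20 at 6 h. These signs are those of Hspd1 and Hspe1, and at 6 h the differences passed 2-fold. The order of the arrays was another, since both probe sets were brightest on the array labelled control at 6 h. Against that array the log2 differences with estradiol at 24 h were -0.04 and -0.49, while those of Hspd1 and Hspe1 stayed positive. Which of the 2 loci gave the signal was not resolved. The probe set rc_AI176460_s_at lists 10 symbols, Hsp90aa1 among them, and was above the floor on no array.

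Hspa1a, the stress-inducible Hsp70, had 1 probe set of its own, Z75029_s_at. It read 1703 in the control and 1451 with estradiol at 24 h, and 774 and 1311 on the arrays labelled control and estradiol at 6 h. It was 1.17-fold lower with estradiol at 24 h and 1.69-fold higher with the estradiol label at 6 h, both under the rule. The 6 h array labelled control was lowest, and the 24 h control was 2.20-fold above it. Hspa1a and its near-identical neighbour Hspa1b shared 4 more probe sets. Z27118cds_s_at read 316 and 496 on the arrays labelled control and estradiol at 6 h and 929 and 514 in the control and with estradiol at 24 h. L16764_s_at read 1449 and 1564 at 6 h and 2020.5 and 1389 at 24 h. The dim rc_AA818604_s_at read 53.6, below the floor, and 160.1 at 6 h and 312 and 300.2 at 24 h, and AA848563_s_at was above the floor only in the 24 h control. All 5 Hsp70 probe sets were brightest in the 24 h control.

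Hspa8, the constitutive Hsc70, was read only on probe sets shared with Haus8l2. M11942_s_at read 13873 and 9878 on the arrays labelled control and estradiol at 6 h and 15218 and 13824 in the control and with estradiol at 24 h. The companion rc_AI234604_s_at read 11398 and 6932 at 6 h and 11632 and 10092 at 24 h. The log2 differences at 6 h were -0.49 and -0.72, and those at 24 h were -0.14 and -0.20. None met the 2-fold rule. Scaling to a common median turned the -0.14 into 0.00. Both probe sets lay lower on the 2 arrays labelled estradiol than on the 2 controls, M11942_s_at by a narrow gap between 13824 and 13873.

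Hspb1, the small heat shock protein Hsp27, met the 2-fold rule on 0 of 4 own probe sets at either time. Its 4 own probe sets lay within 1.22-fold at 24 h and within 1.28-fold at 6 h. M86389cds_s_at read 3266 in the control and 3969 with estradiol at 24 h, and 3262 and 3647 on the arrays labelled control and estradiol at 6 h. The brightest, rc_AI176658_s_at, read 5571 and 6147 at 24 h and 4404 and 5256 at 6 h. The pair rc_AA998683_at and rc_AA998683_g_at comes from 1 expressed sequence tag and ranked the arrays differently. The first read 1164 and 979.9 at 24 h and 1365 and 1748 at 6 h, lowest with estradiol at 24 h. The second read 5159 and 5912 at 24 h and 3858 and 4851 at 6 h, highest with estradiol at 24 h.

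A probe set annotated to both Asb2, a subunit of a ubiquitin ligase, and Hspb1 differed by more than 2-fold in opposite directions at the 2 times. It is rc_AA799438_at, and it read 1764 in the control and 840.4 with estradiol at 24 h, and 609 and 1566 on the arrays labelled control and estradiol at 6 h. It was 2.10-fold lower at 24 h and 2.57-fold higher at 6 h. It carries both symbols, so it is not counted for Hspb1.

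Cryab, which encodes alpha B-crystallin, a small heat shock protein of lens and muscle, was dim on this array, and both probe sets read higher with the estradiol label at both times. The differences at 24 h were under 2-fold. M55534mRNA_s_at read 392 in the control and 479 with estradiol at 24 h, and 189 and 335 on the arrays labelled control and estradiol at 6 h. X60351cds_s_at read 274 and 459.5 at 24 h, and 56.3, below the floor, and 173 at 6 h. The folds were 1.22 and 1.68 at 24 h, and 1.77 and at least 1.59 at 6 h. The last is a lower bound that did not meet the rule, and its log2 difference was 1.62 with a floor at the 20th percentile and 1.07 with a pseudocount of 50, both past 2-fold. Both probe sets were also higher at 24 h than at 6 h in the controls, by 2.07-fold and at least 2.53-fold. The summed stroma markers moved the same way between the controls, from 24861 at 6 h to 39720 at 24 h, and their part in this was not tested. The groups therefore overlap across times, since the 24 h control was above the array labelled estradiol at 6 h.

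Hsf1 was the only gene with probe sets of its own that lay lower on both arrays labelled estradiol than on both control arrays, on 3 of 3 probe sets. The brightest, rc_AI172097_g_at, read 1353 and 904 on the arrays labelled control and estradiol at 6 h and 1063 and 575 in the control and with estradiol at 24 h. The companion rc_AI172097_at, from the same expressed sequence tag, read 682 and 469 at 6 h and 577 and 393 at 24 h. The third, X83094cds_at, read 266 and 62.4 at 6 h and 197 and 55.9 at 24 h, with both estradiol arrays below the floor. The log2 differences of the first pair were -0.89 and -0.55 at 24 h and -0.58 and -0.54 at 6 h, under the rule. X83094cds_at was at least 2.21-fold lower at 24 h and at least 2.60-fold lower at 6 h. Of all probe sets measured, 14.2% lay lower on both arrays labelled estradiol than on both controls with the controls above the floor, and 8.36% lay higher with the estradiol arrays above it. Of the 18 heat shock probe sets 3 lay lower, all of Hsf1, beside the 2 joint probe sets of Hspa8, and 1 lay higher, M86389cds_s_at of Hspb1. This separation, its background share and the treatment term below all rest on the labels at 6 h, which the 4 label check genes go against. With the direction at 6 h turned, Hsf1 would be lower at 24 h and higher at 6 h, and its groups would overlap.

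Summed markers of several other cell types were also lower on both arrays labelled estradiol than on both controls. Those of macrophages and leukocytes read 7310 and 5729 in the control and with estradiol at 24 h and 8190 and 5970 on the arrays labelled control and estradiol at 6 h, but of 6 measured markers 2 were at least 2-fold higher and 3 lower at 24 h, and Itgam was below the floor on all 4 arrays. Those of endothelium read 1454 and 844 at 24 h and 1439 and 1119 at 6 h, with 1 of 5 markers at least 2-fold lower at each time. At 6 h Kdr read 705 and 184, while Pecam1, Flt1 and Vwf read higher with the estradiol label. The median log2 difference of the 5 was 0.20 at 6 h. The summed blood markers, mostly Hbb, read 12899 and 8933 at 24 h and 9649 and 5896 at 6 h, with 0 of 2 past 2-fold. Alas2 read higher with estradiol at 24 h, 364 and 447. Summed nerve and adipocyte markers had the same separation, with Mbp, S100b and Plin1 below the floor on all 4 arrays. The nerve sum, mostly Pmp22, read 6274 and 3664 at 24 h and 5878 and 5048 at 6 h, with 0 of 3 past 2-fold. The adipocyte sum, mostly Lep and Lpl, read 5207 and 2372 at 24 h and 3991 and 3872 at 6 h, a narrow gap. Fabp4 was above the floor only on the array labelled control at 6 h. Of its genes Lpl went the other way at 6 h, 565 and 1222, 2.16-fold higher with the estradiol label. The part of these cell types in the Hsf1 difference was not tested.

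The heat shock probe sets were also fitted in limma with treatment and time as added terms, which left 1 residual degree of freedom. The treatment term of X83094cds_at was -1.26 ± 0.35 (SE), with an adjusted p of 0.999 in limma after Benjamini-Hochberg adjustment over 6157 probe sets. The other Hsf1 probe sets had terms of -0.73 ± 0.35 and -0.55 ± 0.34. The Hspe1 terms were 0.03 ± 0.68 and -0.03 ± 0.69, since the fit averages the opposite differences of the 2 times. Over all probe sets limma called 0, or 0%, at an adjusted p under 0.05, while 104 had an unadjusted p under 0.05, 1 of them the Hsf1 probe set X83094cds_at. The size of the X83094cds_at difference depended on the floor. Its log2 difference was -1.82 at 24 h and -2.09 at 6 h with a floor at the 20th percentile, and -1.22 and -1.49 with no floor and a pseudocount of 50. With a floor at the 60th percentile its values of -0.13 and -0.01 reflect only the floors of the arrays and measure no difference.

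Over the 18 probe sets, 2 were at least 2-fold higher with estradiol at 24 h and 1 lower, both higher ones of Hspe1 and the lower one of Hsf1. At 6 h 0 were higher, and 5 probe sets of Hspd1, Hspe1 and Hsf1 were lower with the estradiol label. That is 3 of 18 beside a background of 16.7% at 24 h, and 5 of 18 beside 12.3% at 6 h. The median log2 difference of the 18 was 0.09 at 24 h and -0.11 at 6 h, beside -0.17 and -0.07 over all probe sets measured. The -0.17 is the log2 ratio of the floors of the 24 h arrays, the value given to probe sets below both. It therefore measures no difference in signal, and it was -0.03 with quantile normalization. The probe sets of Hspe1, of Hspd1 and of Hsf1 each read 1 gene, so the 5 calls at 6 h stand for 3 genes. In the comparison with the control of the other time, 0 of 18 were lower with the estradiol label at 6 h. Over all 6157 probe sets 9.89% were called either way at 6 h, 439 higher and only 170 lower. At 24 h 3 of the 18 were higher and 2 lower with estradiol, beside 16.2% of all probe sets, 382 higher and 615 lower. The 3 were of Cryab and Hsp90ab1, not of Hspe1.

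Between the times, the controls differed for 4 of 18 probe sets, all higher at 24 h and beside a background of 17.9% (8.43% higher and 9.45% lower). They were those of Hspa1a and Cryab and rc_AI008074_s_at of Hsp90ab1. The arrays labelled estradiol differed for 5 of 18, all higher at 24 h and beside 15.3% (5.99% higher and 9.29% lower), those of Hspd1 and Hspe1 and X60351cds_s_at of Cryab. These comparisons share arrays with the estradiol comparisons and lie across scan days.

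**Figure D4:**
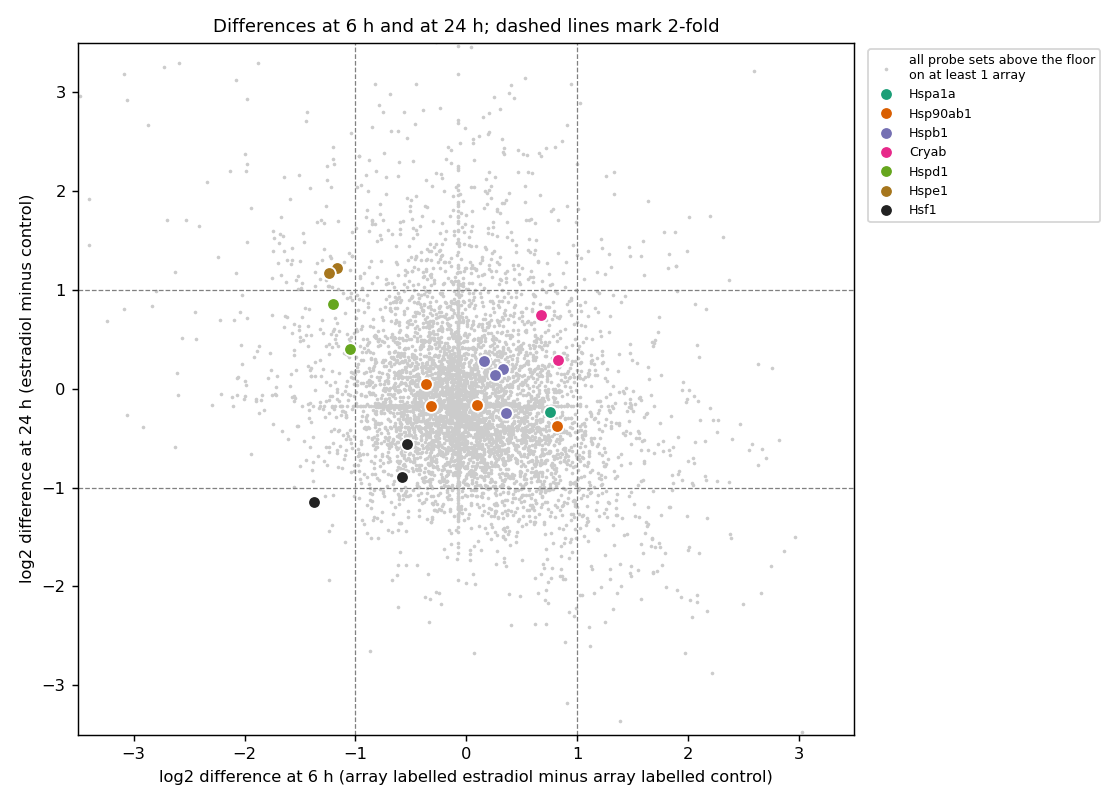
Log2 difference at 24 h (y axis, estradiol minus control) against that at 6 h (x axis, array labelled estradiol minus array labelled control) for the heat shock probe sets in colour and 6157 measured probe sets in grey, 12 of which lie outside the axes; dashed lines mark 2-fold. The Hspe1 points lie in the upper left with log2 differences of 1.22 and 1.18 at 24 h, Hsf1 lies in the lower left, and most other coloured points lie inside the dashed lines.

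The other chaperones and stress genes were read by the brightest probe set of each gene, from 7 lists of names that together had 34 measured genes. At 24 h the 2-fold rule was met upwards by 3 of the 34 and downwards by 3, beside 16.7% called among the 3619 genes measured (8.68% higher and 8.04% lower). At 6 h 0 were higher and 5 lower with the estradiol label, beside 11.6% called (6.47% higher and 5.08% lower). The 3 that were higher at 24 h were Trap1, the mitochondrial Hsp90, at least 5.16-fold, Pfdn2, a prefoldin subunit, at least 5.01-fold, and Ppp5c, a phosphatase that binds Hsp90, at least 2.19-fold. All 3 were below the floor in the 24 h control alone. Trap1 read 50.7 there, against 388, 566 and 519.9 in the 6 h control, with the estradiol label at 6 h and with estradiol at 24 h. Against the 6 h control 0 of the 34 were higher with estradiol at 24 h, beside 382 of 6157 probe sets measured.

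Among the partners of Hsp70, the relatives had a median log2 difference of -0.34 at 24 h and -0.60 at 6 h over 5 genes. Hspa2, a relative known from the testis, read 700.4 in the control and 277 with estradiol at 24 h and was 2.53-fold lower. Hspa9, the mitochondrial Hsp70 that pulls proteins into the matrix and passes them to Hsp60, read 2230.4 and 1012 on the arrays labelled control and estradiol at 6 h and was 2.20-fold lower. At 24 h Hspa9 read 1595 in the control and 1069 with estradiol, 1.49-fold lower, in the opposite direction to Hspe1. The Hsp40 and other co-chaperones had medians of -0.26 and -0.18, and 0 of 10 met the rule at either time. Stip1, which links Hsp70 to Hsp90, read 557 and 589 at 24 h and 729 and 369 at 6 h, and Dnaja1, an Hsp40, read 3771 and 3017 at 24 h and 4364 and 2351 at 6 h.

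Among the partners of Hsp90, 6 genes had a median of 0.67 at 24 h and -0.26 at 6 h, with 2 higher at 24 h, Trap1 and Ppp5c, and 0 lower. Fkbp4, the immunophilin of steroid receptor complexes, read 975 in the control and 1875 with estradiol at 24 h and 1406 and 708 on the arrays labelled control and estradiol at 6 h. The log2 differences, 0.94 at 24 h and -0.99 at 6 h, were just under the rule. Ppid, another immunophilin of these complexes, read 524 and 269 at 24 h, a log2 difference of -0.96, and 490 and 486 at 6 h. Cdc37, which brings kinases to Hsp90, read 3061 and 4042 at 24 h and 4098 and 3574 at 6 h.

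The cytosolic folding ring TRiC and its partner prefoldin had 3 measured genes, all lower at 6 h with the estradiol label, with a median of -1.12. Cct3, a ring subunit, read 1880 and 884, Cct6a, another subunit, 380.3 and 174, and Pfdn2 877 and 381. They were 2.13-fold, 2.18-fold and 2.30-fold lower. At 24 h Cct3 read 1226 and 1568 and Cct6a 392 and 335, both under the rule. The list of mitochondrial import and protein quality had medians of 0.16 at 24 h and -0.45 at 6 h over 5 genes, with Trap1 higher at 24 h and Hspa9 lower at 6 h. Tomm20, a receptor of the outer membrane, read 3256 and 3803 at 24 h and 4213 and 2885 at 6 h.

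The small heat shock proteins Hspb2, Hspb6 and Cryaa had medians of -0.40 and -0.37, and 0 of 3 met the rule at either time. Hspb6, which is abundant in smooth muscle, read 917 and 642 at 24 h and 453 and 721 at 6 h. In the list of stress genes around heat shock factor, with medians of -0.10 and -0.21 over 5 genes, 2 were lower at 24 h. Gadd45a, a growth arrest gene, read 1066 and 313 and was 3.41-fold lower, and Ddit3, a transcription factor of the unfolded protein response, read 527 and 190.3 and was 2.77-fold lower. Atf3, an early stress factor, read 704 and 189 at 6 h and was 3.71-fold lower with the estradiol label.

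Serpinh1, the collagen chaperone Hsp47, read 8015 and 11962 at 24 h and 6842 and 5420 at 6 h. It is a heat shock factor target that works in the endoplasmic reticulum. The chaperones Hsp90b1 and Hspa5 work in that compartment too. Hsp90b1 read 2336 and 5496 and was 2.35-fold higher, and Hspa5 read 2726 and 4503, 1.65-fold higher. At 6 h Hspa5 read 4073 and 1325, 3.07-fold lower with the estradiol label, and Hsp90b1 2574 and 1859, 1.38-fold lower. Immediate-early genes, which respond quickly to many stimuli, were lower at 6 h with the estradiol label for 8 of 11 measured, with a median of -1.17, while 1 was higher and 1 lower at 24 h. Junb, the higher one, was below the floor in the 24 h control alone. Klf4, Myc and Junb were 2.98-fold, 2.94-fold and 3.99-fold lower at 6 h.

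**Figure D5:**
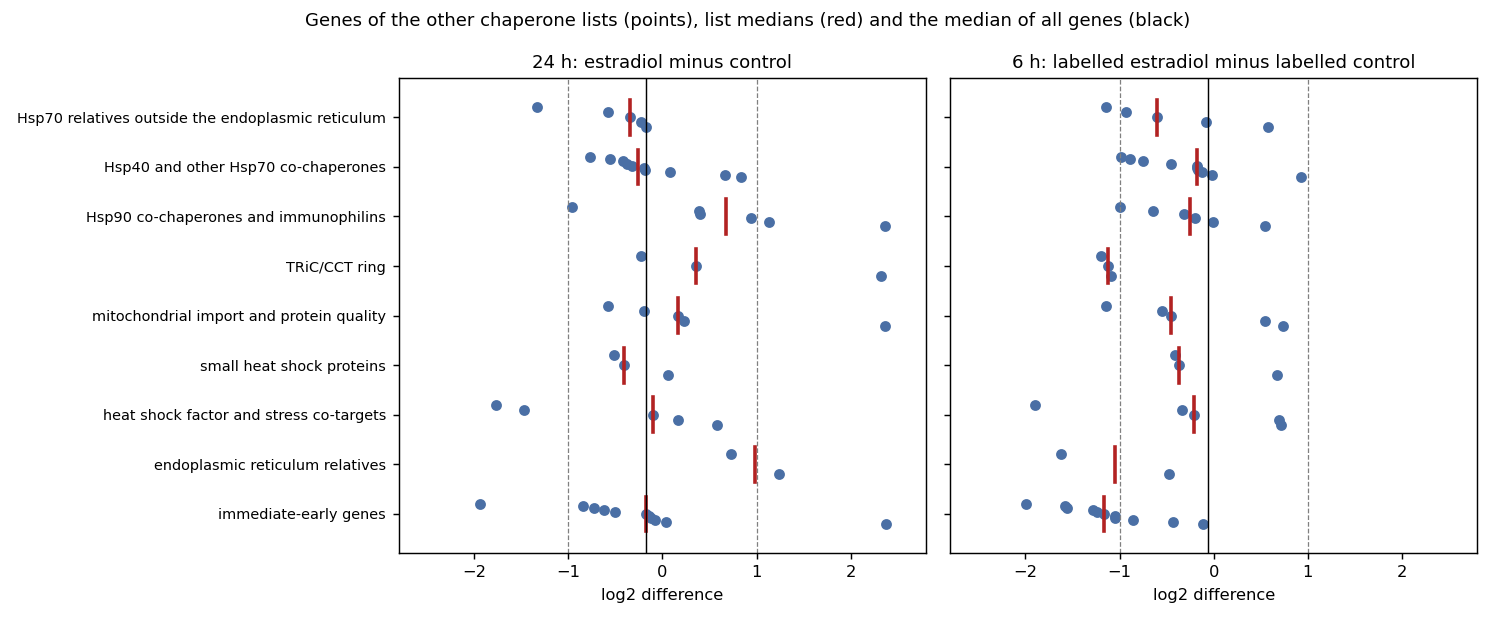
Log2 differences at 24 h (left) and 6 h (right) of the measured genes in 9 lists, 1 point for each gene, with list medians in red, the median of all genes in black and 2-fold as dashed lines. The 3 points of the TRiC list and most immediate-early genes lie left of 2-fold at 6 h, and the points farthest right at 24 h are Trap1 (in both of its lists), Pfdn2 and Junb, each below the floor in the 24 h control.

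Genes that share the 3-unit heat shock element were few and differed in both directions. Of 18 measured genes with the run in their promoter window, 2 were higher and 1 lower at 24 h and 1 was higher and 3 lower at 6 h. Over all 2965 measured genes with a window, 265 were higher and 234 lower at 24 h, and 193 were higher and 149 lower at 6 h. The median log2 differences of the 18 were -0.15 and 0.01, beside -0.17 and -0.05 over the 2965. Here too the -0.17 is only the log2 ratio of the floors of the 24 h arrays. The 2 that were higher at 24 h, Hspe1 and Crispld2, a secreted protein, were also lower at 6 h, as were 44 of the 2965. Dnaja1, Hsph1 and Chordc1, chaperone genes with this run, had log2 differences of -0.32, -0.23 and 0.38 at 24 h and of -0.89, -0.93 and -0.64 at 6 h. Serpinh1 and Hspd1, chaperone genes with this run too, had 0.58 and 0.86 at 24 h and -0.34 and -1.20 at 6 h.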

How the data were processed

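Total RNA of rat myometrium, pooled from 6 animals per group, was hybridised to 4 Affymetrix rat arrays, 1 for each group. The deposited values are signal intensities, made with MAS5 per the submitters' processing notes (software version: not given in the sources used here). Each deposited intensity column had a 2% trimmed mean of 500. The instrument records, whose other values are settings, were read for lot, scan day and wash record per the file headers. Of 8799 probe sets 59 array controls were left out. A single symbol stood beside 7018 probe sets in the platform table, which alone were named, while 308 had several and 1473 had none; matching by gene identifier to RefSeq changed 0 symbols.

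Signals were scaled, floored at the 40th percentile of each array and turned to log2 with Python 3.11.15 and pandas 2.3.3. limma 3.58.1 in R 4.3.3 fitted treatment and time, with a threshold of 0.05 after Benjamini-Hochberg adjustment. The number of arrays limits the precision. The 2-fold rule and the limma fit were each tested on made-up arrays with known changes. Those arrays had a set noise and the same change at both times, unlike Hspe1 and the label check genes as labelled. Named genes were all members, the genes of the fixed lists past 2-fold (up to 5 per list and comparison), the 4 nearest patterns and 4 label checks; further genes that are named were chosen after their values were seen. The members and lists were chosen with earlier results of these data known. Promoter windows came from RefSeq, build GRCr8. Alternatives were other scalings, floors, a pseudocount of 50, 1.5-fold and 3-fold rules and other ways to treat probe sets.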

Additional observations from a re-analysis of the deposited data

Results flagged for a closer look

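Hspe1 differed in opposite directions at the 2 times. Its log2 differences were 1.22 at 24 h and -1.16 at 6 h for rc_AI170613_at, and 1.18 and -1.24 for rc_AI170613_g_at. The difference between the times was not tested, because each time has 1 pair of arrays. Igf1, Pgr, S100g and Hsd11b2 also differed in opposite directions, 4 of 4, with log2 differences from 1.46 to 2.96 at 24 h and from -3.48 to -2.53 at 6 h. Whether an exchange of labels at 6 h has a part in this was not tested.

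Some probe sets outside the members, because they carry several symbols, also passed 2-fold. The probe set annotated to Asb2 and Hspb1 had log2 differences of -1.07 at 24 h and 1.36 at 6 h. The probe sets annotated to Hsp90aa1 and its pseudogene had -1.20 (rc_AA944397_at) and -1.21 (rc_AI176546_at) at 6 h.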

How the results depend on the processing

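The 18 member and 10 joint probe sets gave 56 differences at the 2 times, and values as deposited gave the same 56 by construction, since the deposited columns already had the trimmed mean used for scaling. With a common median 54 of 56 calls held, with quantile normalization 55, with the lower floor 54, with the higher floor 54 and with a pseudocount 54. The counts of member probe sets were 2 higher and 1 lower at 24 h, 0 higher and 5 lower at 6 h, 4 and 0 between controls, and 5 and 0 between estradiol labels. For other chaperone genes they were 3 and 3 at 24 h and 0 and 5 at 6 h. With a 1.5-fold rule members numbered 4 higher and 2 lower at 24 h, 4 higher at 6 h, 3 lower between controls and 2 lower between estradiol labels, and other genes 6 and 5 at 24 h and 5 and 12 at 6 h. With a 3-fold rule members numbered 0 and 0 at 24 h, 0 lower at 6 h, 0 higher between controls and 2 higher between estradiol labels, and other genes 1 lower at 24 h and 1 lower at 6 h. Quantile normalization or the floor at the 60th percentile left 0 members lower at 24 h, and that floor 2 higher between controls. The floor at the 20th percentile gave 1 member (Cryab) and 1 other gene higher at 6 h, and the pseudocount 1 member (Cryab). With probe sets reduced to the brightest or to the mean for each gene, 1 gene was higher and 0 lower at 24 h and 2 lower at 6 h, of 7 genes, which is fewer units by construction. Against the control of the other time, chosen after seeing the data, 2 members were lower at 24 h and 0 at 6 h, and other genes numbered 0 higher at 24 h and 3 higher and 1 lower at 6 h. Over all 6157 probe sets that comparison gave 382 higher and 615 lower at 24 h and 439 and 170 at 6 h. The Asb2 and Hspb1 probe set, past 2-fold in the main comparison, then reversed, to 0.46 at 24 h and -0.17 at 6 h. Some differences under 2-fold changed sign too. Hspa1a went from -0.23 to 0.91 at 24 h and from 0.76 to -0.38 at 6 h. The Cryab probe sets went from 0.82 and 0.67 to -0.23 and -0.67 at 6 h. Probe sets of Hsp90ab1 and joint ones of Hspa1b and Hsp90aa1 changed sign at 24 h. Those of Hspe1, Hspd1 and Hsf1 kept their signs at both times. The cause was not tested. limma called 0 probe sets under every setting run. Scaling to a common median moved the median of all probe sets at 24 h from -0.17 to -0.03 and the split from 511 higher and 515 lower to 630 and 368, and quantile normalization gave 552 and 389. Without probe sets ending in _x_at or _s_at the member counts were 2 and 1 at 24 h and 0 and 4 at 6 h. The labels give no replicate numbers and each group has 1 array, so no block by replicate could be fitted; the limma fit had time as a term, which compares estradiol with control within each time. Signals near the floor limit Cryab and the X83094cds_at probe set of Hsf1.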
